A study of Mus musculus with 2 samples.

Results

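The genes described here encode the nuclear subunits of the mitochondrial respiratory chain, measured in mouse pancreas. They were chosen by symbol: protein-coding genes of a GRCm38 GENCODE annotation named Nduf (a, b, c, s or v), Sdha to Sdhd, Uqcr, Cox4 to Cox8 or Atp5. This gave 93 of 43346 gene rows. Of these, 84 are structural subunits, 36 of complex I, 4 of complex II, 8 of complex III, 20 of complex IV and 16 of complex V. The name pattern also takes in 8 complex I assembly factors of the Ndufaf series, and Atp5s, which is not a structural subunit; these 9 are given apart. Another 11 symbols that match the pattern belong to processed pseudogenes and were not members. Subunit genes with other names, such as Cyc1 of complex III and Usmg5 of complex V, were not members either.

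The RNA came from the pancreas of 1 female C57BL/6J mouse of 10 weeks, an adult of the reference inbred strain, with no treatment or engineered allele named in the labels. Polyadenylated RNA was sequenced as 2 technical replicate libraries of 1 biological sample, and replicate 2 was made in 2015, after the published work that used replicate 1. There is 1 group and no condition to compare, so every spread given here is technical. The labels do not say whether RNA was extracted again for replicate 2, and the spread may include that step. Expected counts, the deposited estimates of reads per gene, summed to 9441559 in replicate 1 and 9797569 in replicate 2.

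The respiratory chain passes electrons from NADH and succinate to oxygen and stores the energy as a proton gradient across the inner mitochondrial membrane. Complex I (NADH dehydrogenase), complex III (the cytochrome bc1 complex) and complex IV (cytochrome c oxidase) pump protons, complex II (succinate dehydrogenase) feeds in electrons from the citric acid cycle, and complex V (ATP synthase) lets the protons flow back to make ATP. The mitochondrial genome encodes a few core subunits of complexes I, III, IV and V, and the other subunits come from nuclear genes. In the pancreas this ATP supports enzyme synthesis in acinar cells, and in islet beta cells it couples glucose to insulin release.

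The 2 libraries differed in their makeup. The annotated gene Gm42418 held 16.9% of the counts in replicate 1 and 42.8% in replicate 2, and genes of the mitochondrial genome held 17.6% and 3.17%. The origin of the Gm42418 reads was not tested. All 6 acinar and all 5 islet markers examined were above 1 TPM (a transcript level corrected for length and scaled to the same total in each library) in both libraries. The summed TPM of the acinar markers was 96246 and 132334, but their median was 17323 and 15206; for the islet markers the sum was 21666 and 23296 and the median 2157 and 1566. The summed TPM of 3 erythroid markers was 939 and 2151, of 3 fibroblast markers 467 and 238, and of 5 smooth muscle markers 173 and 119. The part of these in the results below was not tested. Defining markers of brown fat and skeletal muscle were at or near 0: Ucp1 had 0 counts in either library, Acta1 had 2 and 0, and Ckm had 0 and 2. The 4 testis markers had 0 counts. In bulk tissue, fewer cells of a type and less RNA per cell cannot be told apart.

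Nearly all subunit genes were detected, at moderate levels. Of the 93 members, 88 reached 1 TPM in both libraries. The 84 structural subunits together held 0.291% of all TPM in replicate 1 and 0.343% in replicate 2, with median levels of 27.2 and 33.5 TPM. Over the 82 subunits with counts, the order of the TPM levels had a Spearman correlation of 0.84 between the libraries, which share 1 tissue sample. Median levels were lowest for complex II, at 11.7 TPM in replicate 1 and 18.3 TPM in replicate 2, and highest for complex V, at 42.8 and 56.7 TPM. Complex I lay at 21.7 and 25.8 TPM, complex III at 27.2 and 50.2 TPM, and complex IV at 35.2 and 39.2 TPM. Over both libraries the medians averaged 23.8 ± 2.95 TPM for complex I, 15.0 ± 4.65 for II, 38.7 ± 16.3 for III, 37.2 ± 2.88 for IV and 49.7 ± 9.82 for V (SD, n = 2 technical libraries). In this order from II through I, IV and III to V, the neighbours IV and III and the neighbours III and V did not differ beyond that spread. The order depends on the length used: with counts divided by full annotated length the averages were 13.8 TPM for complex I, 15.0 for II, 25.2 for III, 24.7 for IV and 34.4 for V, so that complex I was lowest. It also depends on the genes counted, since complex IV includes 8 tissue-restricted genes with medians of 1.86 and 2.82 TPM. The other 12 complex IV genes had medians of 51.1 and 60.9 TPM, above those of complex V in both libraries.

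**Figure D1:**
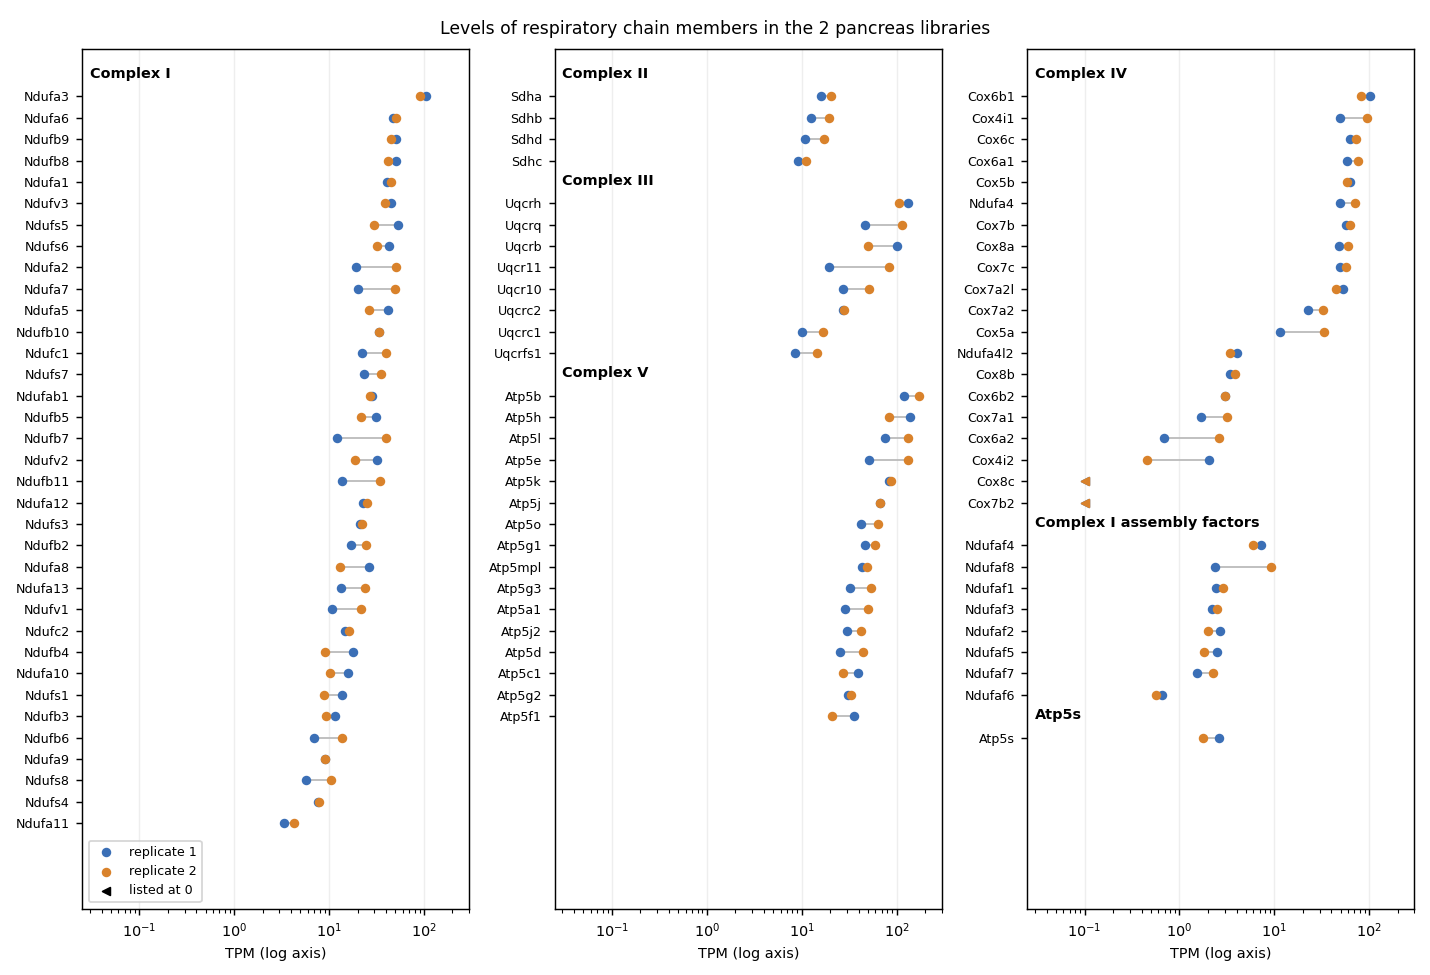
TPM of the members, with 1 not drawn, on a log axis, by complex, with replicate 1 in blue and replicate 2 in orange; a grey line joins the libraries and triangles mark genes listed at 0. Complex V members sit between 21.1 and 171 TPM, the assembly factors between 0.57 and 9.17 TPM, and Cox8c and Cox7b2 at 0.

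In complex I the most abundant transcript was that of the accessory subunit Ndufa3 (chromosome 7, 3617373 to 3620327) with 106 and 90.8 TPM. The accessory subunits Ndufa6, Ndufb9 and Ndufb8 followed, with mean levels of 48.4, 48.2 and 46.2 TPM. The lowest by mean were Ndufa11 at 3.34 and 4.23 TPM and Ndufs4 at 7.60 and 7.88 TPM. The 7 core subunits, which hold the flavin and the iron-sulfur clusters of the NADH-oxidising arm, had median levels of 21.0 and 21.9 TPM. The 29 accessory subunits, which surround this core, had medians of 22.3 and 27.2 TPM, so the classes did not stand apart in level.

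Among the core genes, Ndufv1, which encodes the flavin-binding subunit that accepts electrons from NADH, had 10.8 and 21.9 TPM from 108 and 167 counts. Its partner Ndufv2 went the other way, with 32.1 and 18.8 TPM. Ndufs1, the largest core subunit, had 13.7 and 8.74 TPM. Ndufs3 had 21.0 and 22.0 TPM and Ndufs7 23.3 and 35.7 TPM. Ndufs8, an iron-sulfur subunit, had 5.72 and 10.5 TPM, the lowest of these in replicate 1, and Ndufs1 was the lowest in replicate 2. Of these named core genes, Ndufs1 and Ndufv2 had a lower TPM in replicate 2, and Ndufs3, Ndufs7, Ndufs8 and Ndufv1 a higher one.

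Complex II is the only complex whose subunits are all nuclear-encoded, and its 4 genes were close in level. The flavoprotein gene Sdha (chromosome 13, 74322254 to 74350280) had 16.0 and 20.3 TPM in replicates 1 and 2, and the iron-sulfur gene Sdhb 12.5 and 19.4 TPM. The membrane anchors Sdhc and Sdhd had 9.18 and 11.1, and 10.9 and 17.2 TPM. All 4 were higher in replicate 2, and none reached the highest levels seen in the other complexes.

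Complex III was uneven. The small hinge subunit Uqcrh (chromosome 4, 116066965 to 116075071) had 131 and 106 TPM, and the small subunits Uqcrq and Uqcrb had 46.3 and 114, and 101 and 49.7 TPM. The core proteins Uqcrc1 and Uqcrc2 had 9.97 and 16.9, and 27.1 and 27.7 TPM, and the Rieske iron-sulfur protein Uqcrfs1 8.58 and 14.5 TPM. The 5 small subunits had medians of 46.3 and 82.5 TPM, against 9.97 and 16.9 TPM for the 3 core and Rieske genes. In replicate 1 Uqcrc2 lay above the small subunit Uqcr11, so the classes overlapped there and did not overlap in replicate 2.

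Complex IV divided into 12 widely expressed genes, with median levels of 51.1 and 60.9 TPM, and 8 tissue-restricted relatives, with medians of 1.86 and 2.82 TPM. Cox6b1, on the intermembrane side of the enzyme, had 103 and 81.8 TPM, Cox6c 63.1 and 72.3 TPM and Cox5b 63.3 and 58.6 TPM. Cox5a, a subunit on the matrix side, was the lowest of the 12 widely expressed genes in replicate 1, at 11.5 TPM from 53 counts, and reached 33.4 TPM from 135 counts in replicate 2. The other 11 of these lay between 22.4 and 103 TPM in replicate 1.

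In complex V the catalytic beta subunit gene Atp5b (chromosome 10, 128083273 to 128090391) had the highest mean level of all members, with 119 and 171 TPM from 855 and 912 counts. In replicate 1 Atp5h and the complex III gene Uqcrh lay above it. It ranked 191 among all gene rows by mean TPM. The alpha subunit gene Atp5a1 had 28.4 and 50.4 TPM and the gamma subunit gene Atp5c1, the rotating shaft, 39.5 and 27.4 TPM. Peripheral stalk gene Atp5h had 139 and 83.5 TPM, while Atp5l, a small membrane subunit, had 74.9 and 132 TPM. The epsilon subunit gene Atp5e had 51.8 and 131 TPM. Stalk genes Atp5h and Atp5f1, with Atp5c1, were the 3 complex V members with a lower TPM in replicate 2. Atp5f1 was the lowest of the complex by mean, at 35.8 and 21.1 TPM, followed by Atp5g2.

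Several subunits exist as tissue isoforms encoded by separate genes. In this pancreas a single widely expressed form held nearly all of the TPM in 6 of the 8 families. COX7A was divided mainly between Cox7a2l and Cox7a2, both counted above as widely expressed, and ATP5G among its genes. Cox4i1 held 96.0% of the COX4 TPM in replicate 1 and 99.5% in replicate 2, the rest being Cox4i2, the form of lung and other oxygen-sensing tissue, with 10 and 2 counts. Of the COX4 counts, 95.8% (95% exact interval 92.4 to 98.0) and 99.5% (98.1 to 99.9) were Cox4i1, intervals that cover counting error only. Cox6a1 held 98.8% and 96.7% of its family's TPM against the heart and muscle form Cox6a2, which had 3 and 10 counts. Cox6b1 held 97.1% and 96.4% against the testis form Cox6b2, with 7 and 9 counts.

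Cox8a held 93.3% and 94.0% of the COX8 TPM. Cox8b, the form of heart, muscle and brown fat, had 6 counts in each library, and the testis form Cox8c had 0 of 166 and 0 of 181 family counts, which allows up to 1.81% and 1.66%. Cox7b2 had 0 of 289 and 0 of 219 counts, which allows up to 1.04% and 1.37% beside Cox7b. Ndufa4, which is named for complex I but is a subunit of complex IV, held 92.5% and 95.4% against Ndufa4l2, a hypoxia-responsive relative with 28 and 21 counts. Each minor form had between 0 and 28 counts, so its share rests on few reads. The summed TPM of 7 skeletal muscle markers was 1.21 and 1.19, of 5 heart markers 1.84 and 2.49, and of 5 brown fat markers other than Cox8b 1.80 and 0.67; their part in the Cox6a2, Cox7a1 and Cox8b counts was not tested.

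The COX7A family was divided. Cox7a2l, which encodes a protein related to COX7A rather than the usual liver-type subunit, held 68.6% and 55.7% of the family's TPM. Cox7a2, the liver-type subunit, held 29.2% and 40.4%, and the muscle form Cox7a1 2.21% and 3.88% from 3 and 5 counts. By counts the Cox7a2 share was 21.4% (95% exact interval 18.1 to 25.1) in replicate 1 and 31.6% (27.4 to 36.1) in replicate 2, intervals that do not overlap. Over both libraries Cox7a2 held 34.8% ± 7.94 of the TPM (SD, n = 2).

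**Figure D2:**
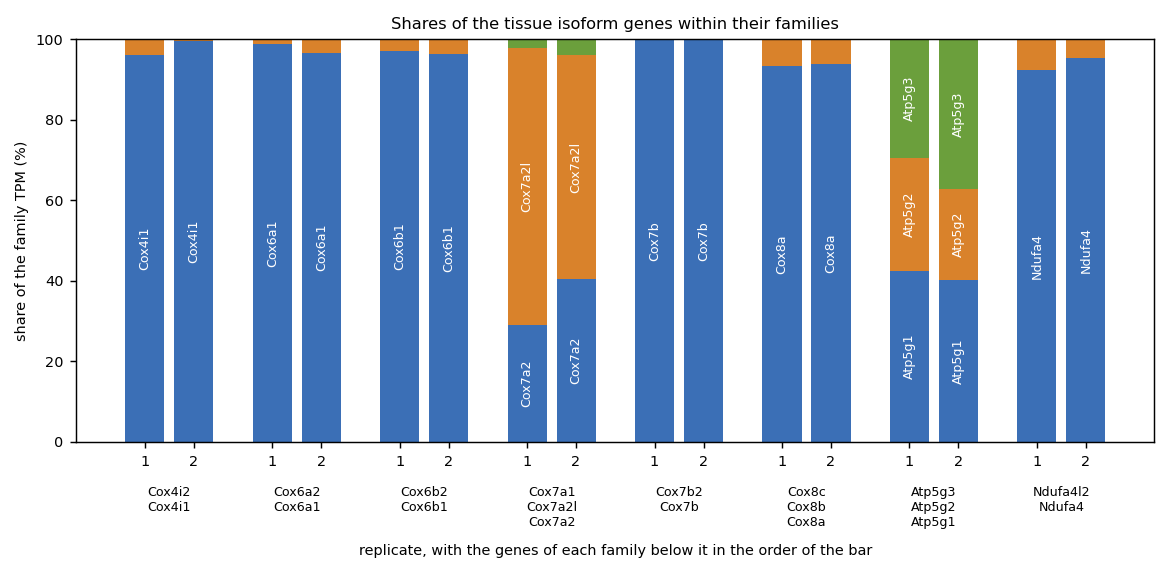
Share of each tissue isoform gene in the TPM of its family, in percent, for replicates 1 and 2; the genes of a bar are named below it in the order of the stack. A single widely expressed form fills over 92% of the bar in 6 families. The COX7A bar is divided mainly between Cox7a2l and Cox7a2, and the ATP5G bar among its genes.

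The ATP5G family is of another kind: Atp5g1, Atp5g2 and Atp5g3 all encode subunit c, which forms the rotating ring of ATP synthase. The sequences are shown because they encode 1 mature protein with different bases. They are the last 225 coding bases of each gene's most abundant coding transcript (exonic, with no UTR), from GENCODE M21, with capitals at the positions where the 3 genes are not all alike.
Atp5g1: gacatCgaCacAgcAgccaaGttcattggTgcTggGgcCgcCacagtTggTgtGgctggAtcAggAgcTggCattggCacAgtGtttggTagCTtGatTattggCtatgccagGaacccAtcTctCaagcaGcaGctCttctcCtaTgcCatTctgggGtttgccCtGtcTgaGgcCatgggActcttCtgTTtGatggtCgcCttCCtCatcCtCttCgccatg
Atp5g2: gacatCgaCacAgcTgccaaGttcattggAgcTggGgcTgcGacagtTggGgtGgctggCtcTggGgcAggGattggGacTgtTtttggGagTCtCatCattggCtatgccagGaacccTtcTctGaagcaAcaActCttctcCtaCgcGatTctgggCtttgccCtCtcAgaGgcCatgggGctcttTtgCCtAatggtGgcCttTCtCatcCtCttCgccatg
Atp5g3: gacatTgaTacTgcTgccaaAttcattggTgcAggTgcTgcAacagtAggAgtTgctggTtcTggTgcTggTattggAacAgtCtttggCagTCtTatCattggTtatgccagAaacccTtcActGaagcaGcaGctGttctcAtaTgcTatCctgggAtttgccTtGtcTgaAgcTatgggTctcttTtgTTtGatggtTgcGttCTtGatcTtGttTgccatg
The genes differ at 57 of these 225 positions, and 52 of the 57 are codon position 3. All 75 codons encode the same residue in the 3 genes, and the longest stretch shared by all is 8 bases. Identity over the 225 bases was 84.9% between Atp5g1 and Atp5g2, 80.0% between Atp5g1 and Atp5g3, and 78.7% between Atp5g2 and Atp5g3.

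All 3 subunit c genes were expressed. Atp5g1 (chromosome 11, 96068852 to 96075670) had 46.6 and 58.9 TPM, Atp5g2 (chromosome 15, 102662864 to 102672352) 31.0 and 33.1 TPM, and Atp5g3 (chromosome 2, 73908447 to 73911326) 32.3 and 54.4 TPM. Atp5g1 held 42.4% and 40.2% of the family's TPM, Atp5g2 28.2% and 22.6%, and Atp5g3 29.4% and 37.2%. The Atp5g1 share by counts, 40.5% (95% exact interval 36.2 to 44.8) and 37.9% (34.0 to 41.9), overlapped between the libraries. That of Atp5g3 was 30.3% (26.4 to 34.5) and 38.5% (34.6 to 42.5), which did not. With counts divided by the longest annotated transcript of each gene in place of the effective length, the Atp5g1 share averaged 9.97%, so its place as the leading gene depends on the length used. Gm10175, a copy of Atp5g2 identical over 441 bases, took 30.9% of their summed reads in each library, so the Atp5g2 level is uncertain.

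Regulators such as NRF-1, the ETS factor GABP, the estrogen-related receptors and YY1 are known to bind promoters of respiratory chain genes. RefSeq promoter windows on GRCm38.p6, from 250 bases before to 50 after their own start site, were matched for 76 of the 93 members. The window nearest the annotated gene start was used. Some lay far from it, such as those of Atp5d at 3643 bases and Cox7a2l at 2997 bases. Both strands were searched for the core letters of each motif. The NRF-1 core CGCANGCG was present in 26 of 76 member windows (34.2%), against 8.21% of all 32851 windows and 17.6% of windows of 9578 tested protein-coding genes. The ERR core AAGGTCA was in 8 (10.5%), against 4.72% and 2.93%, and the YY1 core AANATGGC in 17 (22.4%), against 6.05% and 8.80%. The ETS core CCGGAAG was in 17 (22.4%), against 8.86% and 18.1%. The Sp1 box GGGCGG was in 35 (46.1%), above the 35.7% of all windows and below the 65.5% of tested genes. A match of letters describes the window and shows no binding. Member windows had a median GC content of 57.8%, against 52.7% for all windows.

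Of the 26 members with an NRF-1 core, 10 belong to complex I, 2 to II, 3 to III, 1 to IV, 7 to V and 3 are assembly factors. The single complex IV gene among them was Cox6a1. None of the 4 matched tissue-restricted complex IV genes (Cox6b2, Cox7a1, Cox7b2 and Cox8b) had an NRF-1, ETS, ERR or YY1 core. The same held for 6 of the 10 matched widely expressed complex IV genes, so the lack of these cores does not set the tissue forms apart. As examples chosen for their matches or lack of them, the 250 bases before the start are printed. The genes are Sdhd and Cox6a1, with both NRF-1 and ETS cores in this stretch, Uqcr11, and the muscle forms Cox7a1 and Cox8b. Capitals mark every match to the 5 motifs on either strand.
Sdhd promoter, chr9:50603850-50604099, minus strand: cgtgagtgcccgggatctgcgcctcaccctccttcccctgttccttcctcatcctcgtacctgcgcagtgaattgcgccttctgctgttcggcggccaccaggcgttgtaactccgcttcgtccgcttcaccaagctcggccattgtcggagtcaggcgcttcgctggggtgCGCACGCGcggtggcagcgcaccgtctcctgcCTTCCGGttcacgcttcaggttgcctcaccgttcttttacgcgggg
Cox6a1 promoter, chr5:115348959-115349208, minus strand: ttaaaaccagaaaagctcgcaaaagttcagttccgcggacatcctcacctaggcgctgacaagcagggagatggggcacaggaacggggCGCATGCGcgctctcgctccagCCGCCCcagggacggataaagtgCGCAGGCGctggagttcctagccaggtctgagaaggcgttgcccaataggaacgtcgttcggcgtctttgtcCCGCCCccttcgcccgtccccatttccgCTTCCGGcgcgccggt
Uqcr11 promoter, chr10:80406822-80407071, minus strand: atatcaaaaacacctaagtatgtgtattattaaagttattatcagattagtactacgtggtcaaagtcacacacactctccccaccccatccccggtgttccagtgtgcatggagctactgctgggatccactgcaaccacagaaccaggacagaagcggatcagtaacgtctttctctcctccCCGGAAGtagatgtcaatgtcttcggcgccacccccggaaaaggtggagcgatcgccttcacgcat
Cox7a1 promoter, chr7:30183921-30184170, plus strand: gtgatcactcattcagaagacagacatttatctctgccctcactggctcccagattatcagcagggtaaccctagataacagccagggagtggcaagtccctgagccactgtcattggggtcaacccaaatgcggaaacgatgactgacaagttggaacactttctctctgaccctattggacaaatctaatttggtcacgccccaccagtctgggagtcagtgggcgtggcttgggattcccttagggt
Cox8b promoter, chr7:140900447-140900696, minus strand: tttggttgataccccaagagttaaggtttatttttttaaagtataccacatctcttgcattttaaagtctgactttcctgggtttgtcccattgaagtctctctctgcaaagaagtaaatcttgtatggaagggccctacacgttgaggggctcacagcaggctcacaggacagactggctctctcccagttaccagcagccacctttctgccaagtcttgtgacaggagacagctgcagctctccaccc
The Cox6a1 stretch held 5 matches, 2 of them NRF-1 cores, the Sdhd stretch 2 and the Uqcr11 stretch 1. The full window of 300 bases, which the counts above use, also held an NRF-1 core in Uqcr11. In Sdhd it also held an ERR core and an Sp1 box. The Cox7a1 and Cox8b stretches held none of the 5 motifs, which says only that these letters are not in this window.

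The libraries were then compared gene by gene. This compares replicate 2 with replicate 1 of the same tissue sample and no conditions, by a two-sided exact binomial test on counts scaled with edgeR's TMM factors. A gene was called where the Benjamini-Hochberg adjusted p over all tested genes was under 0.05 and the log2 ratio was at least 1 above or below 0. Replicate 2 was made later, and date and library cannot be told apart. Of the 93 members, 85 had the mean of 10 counts needed for testing; those left out were Ndufaf6 and 7 tissue-restricted complex IV genes.

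Replicate 2 had 20 of the 85 tested members called higher (23.5%) and 0 called lower. Among all 12452 tested genes 8.31% were called higher and 4.0% lower. The members' median log2 ratio was 0.44 against -0.01 for all tested genes, and 67 of 85 members had a ratio above 0. By the same exact binomial test, 50 members were higher and 6 lower at an unadjusted p under 0.05, and after Benjamini-Hochberg adjustment 43 and 6 passed. Of all tested genes, 22.5% were higher and 21.5% lower at the unadjusted threshold, and 18.8% and 17.4% after adjustment. The scaling decides where 0 lies: with library totals in place of TMM every log2 ratio fell by 0.54, and the members' median was -0.10 against -0.55 for all genes. On that scale 7 members were called higher and 2 lower, Uqcrb and Ndufa8, against 2.75% and 20.9% of all genes. With totals that leave out mitochondrial genes, Gm42418, Gm26917 and Lars2, 15 members were called higher and 0 lower, against 6.32% and 6.33% of all genes, and the median was 0.31. A change of scaling moves every log2 ratio by the same amount. The gap between the members' median and that of all genes is therefore fixed across these scalings.

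The test holds counting error only. When the edgeR exact test was given an assumed dispersion of 0.1, 0 members were called in either direction, against 0.249% of all genes higher and 0.112% lower; 9 members were higher and 0 lower at an unadjusted p under 0.05, against 3.08% and 1.08%. With a dispersion of 0.01 it called 20 members higher and 0 lower, against 6.96% and 2.89% of all genes.

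**Figure D3:**
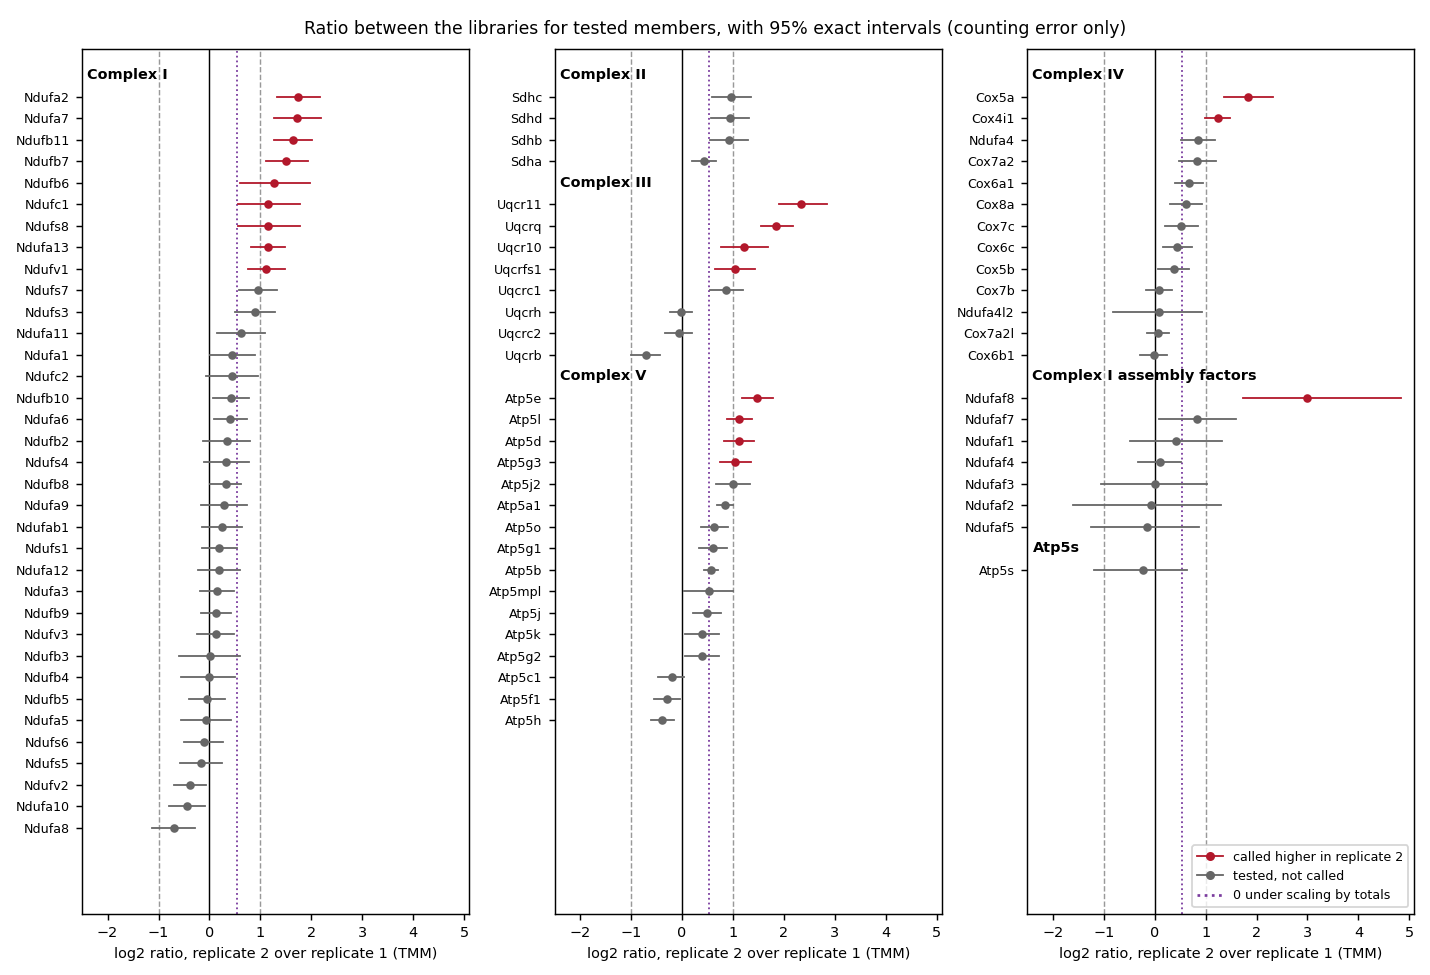
Log2 ratio of replicate 2 over replicate 1 (TMM scaling) for the tested members by complex, with 1 not drawn, with 95% exact intervals of the counts; red marks the 20 called members. Dashed lines lie at a log2 ratio of 1 and -1, and the dotted line shows where 0 falls under scaling by library totals, 0.54 to the right.

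By complex, the members called higher were 9 of 36 in complex I, 0 of 4 in complex II, 4 of 8 in complex III, 2 of 13 tested in complex IV and 4 of 16 in complex V, plus 1 of 7 assembly factors. The median log2 ratios were 0.34, 0.93, 0.95, 0.53 and 0.59 for complexes I to V and 0.10 for the assembly factors. These differences between complexes were not tested.

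Small subunits of complex III had the largest called ratios among the structural genes. Uqcr11, one of them (chromosome 10, 80402997 to 80406830), had 50 counts in replicate 1 and 183 in replicate 2, or 19.4 and 82.5 TPM, a log2 ratio of 2.34 (95% exact interval 1.90 to 2.84, adjusted p = 2.76e-28). Uqcrq (chromosome 11, 53427922 to 53430831), another small complex III subunit, had 121 and 313 counts, with a log2 ratio of 1.85 (1.55 to 2.17, adjusted p = 1.72e-35). In the same complex Uqcrb had 329 and 143 counts, with a log2 ratio of -0.72 (-1.01 to -0.43, adjusted p = 3.54e-06), short of the size needed for a call. Subunits of 1 complex thus had intervals that did not overlap.

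Cox5a (chromosome 9, 57521274 to 57532426) had 53 and 135 counts, which gave a log2 ratio of 1.82 (interval 1.36 to 2.32, adjusted p = 3.28e-15). The 3 accessory genes Ndufa2, Ndufa7 and Ndufb11 of complex I lay close together. Ndufa2 had 68 and 162 counts and a log2 ratio of 1.73, Ndufa7 59 and 139 counts and 1.71, and Ndufb11 89 and 198 counts and 1.63. Ndufb7 followed at 1.51, the epsilon subunit gene Atp5e at 1.47 (136 and 271 counts) and Ndufb6 at 1.27. The assembly factor Ndufaf8 had the highest ratio of all members, 3.0, from only 5 and 31 counts, with an exact interval of 1.74 to 4.83. Uqcr11, Uqcrq, Cox5a, Ndufa2, Ndufa7, Ndufb11 and Ndufaf8 were the 7 members called higher with TMM, with library totals and with a GC trend taken out as given below.

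The other called members had log2 ratios from 1.03 (Uqcrfs1) to 1.24 (Cox4i1). They were Ndufs8 and Ndufv1 of the complex I core, the accessory genes Ndufc1 and Ndufa13, the small complex III subunit Uqcr10, the Rieske gene Uqcrfs1, Cox4i1, and Atp5d, Atp5g3 and Atp5l of ATP synthase. Cox4i1 (chromosome 8, 120668222 to 120674207) had 227 and 383 counts and a log2 ratio of 1.24 (95% exact interval 1.00 to 1.48, adjusted p = 8.21e-24). The gene lies whole within Gm20388, an annotated gene on the same strand with 141 and 72.4 counts, and with these summed in the log2 ratio was 0.79, below the size of a call. Another 4 called members, Atp5d, Ndufa2, Ndufb11 and Ndufb6, overlap a gene on the opposite strand whose counts came to 10% or more of theirs. No source used here says whether counting used strand, so reads of such pairs may be shared. The catalytic Atp5b had a log2 ratio of 0.58 (0.44 to 0.71) and Atp5a1 of 0.84 (0.68 to 1.00), both past the p threshold and short of the size. The complex II genes lay between 0.43 for Sdha and 0.96 for Sdhc, all 4 with an adjusted p under 0.05 and below the size threshold. Ndufv2 had a log2 ratio of -0.39 and Ndufa8 of -0.70.

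GC content moved with the ratio. Over the 85 tested members the log2 ratio and the GC content of the dominant transcript had a Spearman correlation of 0.39, and over 12324 tested genes of 0.47; the points share both libraries. Called members had a median GC content of 55.4% and the other tested members 50.9%. Member transcripts were short, with a median of 679 bases against 2662 for all tested genes, and the correlation of the ratio with length was -0.13 over members. With a smooth trend on GC content and length removed, 12 members were called higher and 0 lower, against 4.22% and 3.84% of all tested genes, and the members' median log2 ratio was 0.33. Besides the 7 named above, Ndufc1, Ndufb6, Uqcrfs1, Atp5l and Atp5e stayed called.

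**Figure D4:**
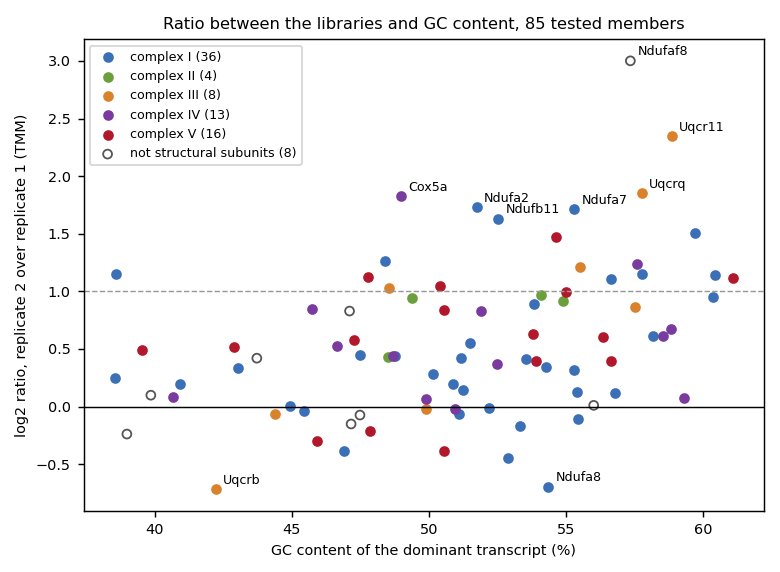
Log2 ratio of replicate 2 over replicate 1 against the GC content of the dominant transcript in percent for the 85 tested members, coloured by complex, with open circles for the 8 members that are not structural subunits. Most members with a ratio above 1 (dashed line) lie to the right, and Uqcrb, at the lower left, has the lowest ratio, -0.72.

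In the deposited transcript estimates, the gene TPM of several subunits was assigned largely to isoforms other than the coding mRNA. Of the 47 members with a mean of 100 counts or more and 2 or more annotated transcripts, 36 had the same most abundant isoform in both libraries. For 12 of the 47 the isoform with the highest mean TPM is annotated as a retained intron, processed transcript or nonsense-mediated decay form. Coding transcripts held a median of 84.7% of the gene's TPM in replicate 1 and 90.7% in replicate 2. In 8 members they held under 50% of the TPM in both libraries, but by counts they held 50% or more in at least 1 library for 4 of these: Cox7b, Atp5b, Cox5b and Ndufab1. The reliability of these isoform estimates was not tested.

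Atp5b shows how far TPM shares and count shares of isoforms can differ. Its isoform Atp5b-206, a processed transcript of 478 bases, held 51.6% and 47.4% of the gene's TPM but 19.8% and 21.7% of its counts. The coding isoform Atp5b-201, of 1916 bases, held 51.2% and 56.6% of the counts and 23.9% and 22.7% of the TPM. Its TPM was 28.6 and 38.8, so the first place of Atp5b by mean level is held by the gene as a whole and not by its coding isoform. A short form has a small effective length, here 315 bases against 1753 in replicate 1, so each read assigned to it adds more TPM than a read assigned to the coding form. With coding transcripts only, the median level averaged over the libraries was 15.5 TPM for complex I, 25.1 for IV and 37.5 for V.

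The 5 members with the most different main isoform were Atp5f1, Uqcrq, Ndufs5, Ndufs3 and Ndufs7. Atp5f1-203, a nonsense-mediated decay form, held 97.4% of Atp5f1 TPM in replicate 1 and 42.9% in replicate 2. The coding isoform Uqcrq-203 held 22.3% and 71.7% of Uqcrq TPM, and Ndufs3-201 32.3% and 74.5% of Ndufs3 TPM. Ndufs5-201 held 54.6% and 100% of Ndufs5 TPM. Ndufs7-206, a processed transcript, held 84.6% and 44.6% of Ndufs7 TPM. In Ndufs7, coding forms had 0% of the TPM in replicate 1 and 34.8% in replicate 2. In 4 of these 5 genes, all but Ndufs5, the coding share of TPM was higher in replicate 2. The median difference of the main isoform's share between the libraries over the 47 members was 13.3 percentage points, so shares of single isoforms were imprecise. For Ndufv3 the short coding form of 485 bases held 94.5% and 92.9% of the TPM.

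**Figure D5:**
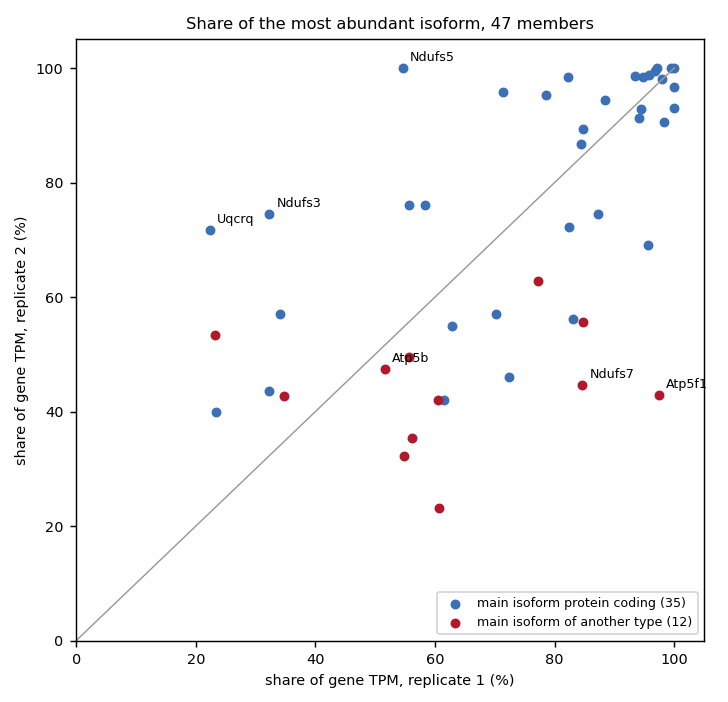
Share of each gene's TPM held by its most abundant isoform, replicate 1 against replicate 2, in percent, for 47 members; the grey line marks equal shares. Red points are the 12 members whose main isoform is not protein coding, and Atp5f1 (97.4% and 42.9%) lies farthest from the line.

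Near-identical copies elsewhere in the genome can share reads with a subunit gene. Only copies annotated as pseudogenes were searched for. At 95% identity or more, over 100 bases or more, they were found for 21 members, 36 copies in all, and 15 of these had counts. For 6 members the copies held 10% or more of the summed counts in either library. Ndufa12 had 109 and 89 counts beside 106 and 0 of its copy Gm15920. With the copy summed in, the log2 ratio of Ndufa12 turned from 0.19 to -0.79. Cox7c went from 0.53 to 0.04 and Ndufs5 from -0.17 to -0.46. Ndufb4 shared its reads with Ndufb4c, which held 46.4% and 42.6% of them. Among the called members Atp5l moved most, from 1.12 to 1.01, and the copies of the other 2, Uqcr11 and Ndufb11, had 0 counts.

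The other nuclear genes of the pathway had median levels of 3.34 and 3.04 TPM. These 55 genes include electron carriers, assembly factors and regulators. Among them Cyc1 and Usmg5 encode subunits of complexes III and V that the name pattern does not take in. In replicates 1 and 2 Cyc1 had 17.5 and 24.7 TPM, and Usmg5 87.7 and 54.3 TPM. Of the 55 genes, 50 were tested, 5 were called higher and 1 lower, with a median log2 ratio of 0.07. With TMM scaling these counts lie near the shares of all tested genes, 8.31% and 4.0%. The called genes were the complex III assembly factor Uqcc2 (31 and 95 counts), the complex IV factors Cox14, Cox17 and Cox19, and Esrra, which encodes an estrogen-related receptor (13 and 49 counts, log2 ratio 2.36). The complex IV assembly factor Cox20 was called lower, with 85 and 29 counts and a log2 ratio of -1.05. Under library totals, 2 were called higher and 10 lower, near the 2.75% and 20.9% of all genes. With the GC and length trend removed, 7 of the 50 were called higher and 0 lower, against 4.22% and 3.84% of all tested genes. The regulator genes had TPM medians of 3.60 and 3.31, with Ppargc1a, a coactivator of mitochondrial genes, at 1.03 and 0.44 TPM.

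The mRNAs of the mitochondrially encoded partners of these subunits were mostly lower in replicate 2. Of the 13 mitochondrial mRNAs, 12 were called lower in replicate 2 with TMM scaling and the same number with library totals, with a median log2 ratio of -2.14 with TMM. In complex IV the 3 mitochondrial mRNAs had medians of 23971 and 1248 TPM in the 2 libraries, which is 682 and 31.8 times the median of the 20 nuclear genes. In complex I the ratio of these medians was 328 and 40.3, in complex III 886 and 106, and in complex V 903 and 129. These ratios depend on the genes counted. Complex III has 1 mitochondrial mRNA, and the 2 of complex V were far apart. There mt-Atp6 had 19144 and 3537 TPM and mt-Atp8 58143 and 11107 TPM. The 20 nuclear genes of complex IV include 8 tissue-restricted ones, and the other 12 had medians of 51.1 and 60.9 TPM. The exception to the lower calls was mt-Nd3, with 387 and 331 counts, a log2 ratio of 0.26 and an exact binomial adjusted p of 0.0519. With the GC and length trend removed, 11 were called lower and mt-Nd3 was called higher, with a log2 ratio of 1.13. With TMM the median log2 ratios lay between -3.78 and -1.89 for the mitochondrial mRNAs of complexes I, III, IV and V and were positive for the nuclear members. With library totals the nuclear medians were -0.20 for complex I, 0.41 for III, -0.01 for IV and 0.05 for V, so their sign depends on the scaling.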

How the data were processed

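Polyadenylated RNA of 1 mouse pancreas was sequenced as 2 technical libraries. Per the deposited README files, the authors used genome build mm10 and GENCODE M4; the sources used here do not name an aligner or quantifier. The authors deposited an expected count per gene and transcript, TPM (count over effective length, scaled to a fixed sum), FPKM, a posterior mean TPM signal, the posterior standard deviation of the count (a score) and the percent of each isoform, per the file headers. Symbols came from GENCODE M21 (42462 of 43346 gene rows matched). The members and lists were chosen with earlier results of these data known.

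Expected counts were rounded and scaled with TMM (edgeR 4.0.16, R 4.3.3). Genes with a mean of 10 counts were tested by a two-sided exact binomial test with Benjamini-Hochberg adjustment; log2 ratios add 0.5 counts. The test covers counting error between these libraries, not conditions, and PCR copies of a molecule count as separate reads. The test was run on simulated data that held counting error only, so that check does not cover other differences between libraries. Intervals are exact Clopper-Pearson at 95%, and a count of 0 is bounded at 3 counts. Named genes were the isoform families, core subunits, the 4 highest and 2 lowest per complex, the 10 largest called ratios and the 5 most different isoforms; others were picked with their values known. Values of 1 member are not reported here, though counts and medians over the members include it. Copies were found with BLAST+ 2.17.0 over 100 bases or more, among transcripts annotated as pseudogenes. Alternatives covered scaling (DESeq2 1.42.0 size factors among them), filters, dispersion, values and lengths. Python 3.11.15 was used.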

Additional observations from a re-analysis of the deposited data

How the results depend on the processing

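Of 98 alternative values that use both libraries, 71 kept their direction and stayed within the set tolerance. Some of the 71 could not have moved. FPKM rescaled to the total of TPM gives TPM again apart from rounding. TPM of coding transcripts only cannot change families whose TPM was all coding, such as COX6A, COX7A and COX8. The 71 therefore does not measure how stable the results are. With library totals, 7 members were called higher and 2 lower and the median log2 ratio turned to -0.10. It was 0.31 with totals that leave out mitochondrial genes, Gm42418, Gm26917 and Lars2. With the GC and length trend removed, 12 members were called higher and the median was 0.33. The edgeR exact test with a dispersion of 0.1 called 0 higher. These totals called 15 higher. The other scalings, filters, count estimates and the pseudocount of 5 gave 18 to 21 members higher and 0 lower. Per full annotated length the medians were 13.8 TPM for complex I, 15.0 for II, 25.2 for III, 24.7 for IV and 34.4 for V, and the subunits held 0.209% of TPM. With coding transcripts only, an alternative chosen after seeing the data, complexes I, IV and V had 15.5, 25.1 and 37.5 TPM, and the share was 0.255%. Posterior mean TPM gave 34.2 TPM for complex IV, 93.1% for Cox6b1, 99.5% for Cox7b and 92.1% for Cox8a; full length gave 97.3% for Cox6b1, 94.9% for Cox8a and 9.97% for Atp5g1. Summing in pseudogene copies turned Ndufa12 to -0.79. The cause of these shifts was not tested. No paired analysis was possible because there is 1 group of 2 libraries. Leaving out replicate 1 or 2 moved no level beyond the SD of the libraries, which with 2 libraries cannot be otherwise. At 103 and 144 counts the log2 ratio of Sdhc had an interval of 0.59 to 1.35, and depth is too low to rank the minor isoforms.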
